A study of Mus musculus with 111 samples.

Results

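The spliceosome is the RNA-protein machine that removes introns from pre-mRNA, and 59 genes for its core parts were measured in single mouse 2-cell embryos, of 36134 genes in the table. They were chosen by gene symbol with earlier results of these data known, though the rule itself used no measured value. They cover the Sm ring, the U1, U2, U5 and U4/U6 particles, the LSm ring and the U11/U12 particle. Also covered are the factors for the branch site and 3' splice site, the Prp19 complex, the release helicases and a group of SR proteins. A gene's level is the sum of the estimated counts of its transcripts, given on the counts-per-million scale (CPM), and every member was in the table. The embryos carried B6129F1 background and came from oocytes taken at the germinal vesicle stage. In the knockdown arm (55 embryos) 2 siRNAs against Nr5a2, at 20 µM each, were injected with 150 ng per µl of RNA for H2B-rsEGFP, and in the control arm (56 embryos) control siRNA went in with the same amount of RNA for H2B-EGFP. The oocytes stayed arrested for 5 hours, matured for 12 hours, were fertilized in vitro and grew in KSOM. Both arms therefore shared injection, in vitro maturation and in vitro fertilization, and differed in the siRNA and in the marker RNA. There were 24 control and 16 knockdown embryos in experiment 1, 7 and 16 in experiment 2, and 25 and 23 in experiment 3. The labels do not say which embryos had a mother in common, so the p-values measure the spread between these embryos. Experiment 2 has no control embryo numbered 1 among those analysed here.

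Small nuclear ribonucleoproteins (snRNPs) are RNAs held in rings of Sm or LSm proteins with further proteins specific to each particle. U1 marks the 5' splice site and U2 the branch site, the U4/U6 and U5 particles join as a tri-snRNP, and helicases then rearrange the RNA contacts for catalysis and release. In the mouse 2-cell embryo, transcripts stored by the oocyte are being replaced by the first products of the embryo's own genome, and Nr5a2 is an orphan nuclear receptor that binds DNA at this stage. Many SR proteins, which recruit the spliceosome to exons, are known to control their own mRNA by including an exon with an early stop codon, which marks the transcript for nonsense-mediated decay.

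The libraries held 1955964 to 21235978 counts on genes, with medians of 4948620 in control and 4512743 in knockdown embryos. Nr5a2 had 32.01, 103.2 and 233.7 CPM (lowest, median and highest) in control and 13.1, 47.2 and 118.7 CPM in knockdown embryos. The arms overlapped embryo by embryo, and in the fit over all embryos Nr5a2 fell by 1.17 on the log2 scale (SE 0.12; edgeR quasi-likelihood test, adjusted p = 3.704e-12), with log2 folds of -1.31, -1.13 and -1.08 in experiments 1, 2 and 3. All 8 oocyte markers were above a median of 1 CPM in both arms, as were 8 of 9 2-cell markers in control and 9 of 9 in knockdown embryos. The oocyte markers summed to medians of 2777 CPM in control and 2800 CPM in knockdown embryos. Their highest sums were 5161 CPM in control embryos and 13550 CPM in a knockdown embryo of experiment 3. The 2-cell markers summed to a median of 1004 CPM in control and 788 CPM in knockdown embryos. Of 8 cumulus and granulosa cell markers, 5 (Amh, Fshr, Foxl2, Has2 and Inha) had a median of 0, and the 8 together reached at most 93.07 CPM. Sperm markers summed to at most 12.25 CPM. Knockdown embryos 8 and 5 of experiment 3 stood apart from their group, with a median correlation across genes to the other embryos of the group of 0.632 and 0.650, where the next lowest embryo had 0.708 and the median of all embryos was 0.851. These embryos held the lowest value of 12 and 9 of the 58 members tested, so the lowest CPM of those members is theirs. Folds of named members that moved by over 1.5 times without these embryos, and decay shares whose range they set, are also given without them. Since each library is 1 whole embryo, fewer cells with an RNA and less of it per cell cannot be told apart.

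The sequences below carry the pattern that set several members apart from most coding genes: much of their estimated count lay on transcripts that the annotation marks for nonsense-mediated decay. For each of 5 members, the stretch runs from the start of the exon that holds the early stop codon to that stop codon, which stands in capitals. All are from GRCm38, 5' to 3' on the gene's strand.
U2af1, exon 4 of 9, chr17:31651684-31651712, minus strand: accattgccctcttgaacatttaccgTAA
Srsf3, exon 4 of 7, chr17:29039454-29039487, plus strand: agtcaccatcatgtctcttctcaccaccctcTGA
Srsf6, exon 3 of 7, chr2:162932815-162932966, plus strand: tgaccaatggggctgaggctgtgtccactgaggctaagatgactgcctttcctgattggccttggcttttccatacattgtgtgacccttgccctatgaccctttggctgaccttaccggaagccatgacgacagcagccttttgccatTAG
Srsf7, exon 4 of 9, chr17:80205054-80205081, minus strand: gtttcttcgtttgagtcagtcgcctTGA
Tra2b, exon 2 of 10, chr16:22259181-22259261, minus strand: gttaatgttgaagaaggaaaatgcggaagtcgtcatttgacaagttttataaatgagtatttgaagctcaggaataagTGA
The stop codons were TAA in U2af1, TGA in Srsf3, Srsf7 and Tra2b, and TAG in Srsf6, and each was followed by 4 or more exon junctions except in Srsf3, where 3 followed. The exons of Srsf3 (456 bases), Srsf7 (460 bases) and Tra2b (276 bases) were in no coding transcript of their gene. The Srsf6 exon (268 bases) shared 165 bases with a coding transcript, and the 67-base exon of U2af1 is in coding transcripts too, where it is used in place of a neighbouring exon and not together with it.

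Most of the counts of Srsf3, Tra2b, U2af1 and Srsf6 were on annotated decay transcripts, in control as in knockdown embryos. Srsf3 codes for the smallest SR protein. Its decay transcript of 2594 bases took 85.9% of the gene's counts over all embryos, and its only coding transcript took 3.61%. Per embryo the decay share of Srsf3 was 51.1%, 88.8% and 94.3% (lowest, median and highest) in control and 52.1%, 86.7% and 96.0% in knockdown embryos. For Tra2b, a splicing activator related to the SR proteins, the leading decay transcript took 67.0% and the leading coding transcript 14.4%. The decay share of Tra2b was 62.2%, 75.9% and 87.1% in control and 36.6%, 76.5% and 85.9% in knockdown embryos. For Srsf3 the arms had nearly the same range. For Tra2b the knockdown range reached below every control, and without the 2 embryos that stood apart it ran from 66.05% to 85.9%. U2af1, the small subunit of the factor that reads the AG at the 3' splice site, had 70.9% of its counts on a decay transcript that holds both of its alternative exons. In U2af1 the decay share was 34.9%, 73.5% and 92.2% in control and 34.7%, 70.3% and 100% in knockdown embryos, whose highest value was 90.0% without the 2 embryos that stood apart.

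Srsf6, an SR protein, was split nearly evenly, with 52.0% of its counts on the decay transcript shown above and 46.5% on its leading coding transcript. The decay share of Srsf6 was 20.2%, 53.2% and 67.1% in control and 0%, 51.3% and 81.5% in knockdown embryos. Srsf7, an SR protein with a zinc knuckle, had 36.0% on its decay transcript and 40.0% on its leading coding transcript. Its decay share spread widely in both arms, with 4.44%, 36.0% and 64.1% in control and 6.03%, 36.6% and 73.6% in knockdown embryos, where the lowest was 16.2% without the 2 embryos that stood apart. For Srsf2, an SR protein that binds exonic enhancers, 43.4% of the counts went to a 620-base decay transcript. Its decay share was 24.2%, 42.7% and 62.5% in control and 0%, 41.5% and 68.5% in knockdown embryos, where the lowest was 20.0% without those embryos. Srsf1, the SR protein first used to define the family, went the other way, with a median decay share of 0 in both arms and median coding shares of 91.4% in control and 93.4% in knockdown embryos.

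**Figure D1:**
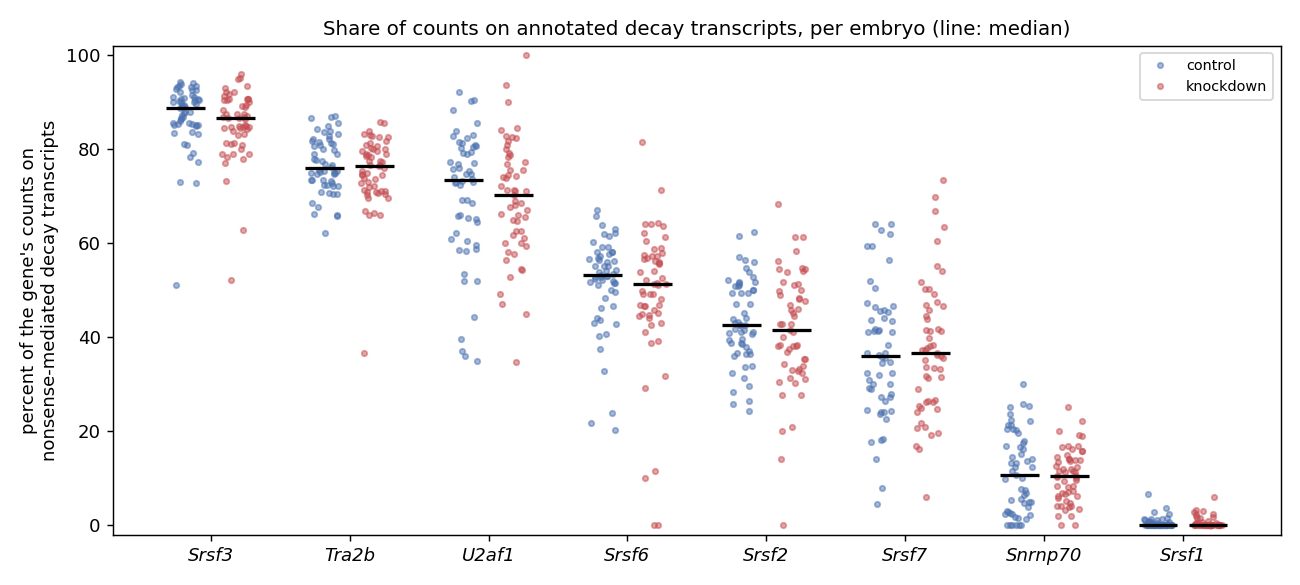
Percent of a gene's counts on nonsense-mediated decay transcripts (vertical axis) for 8 members, 1 point per embryo, control in blue and knockdown in red, with a line at the median. Srsf3 sits highest, with medians of 88.8% and 86.7%, Srsf1 lies at a median of 0, and the arms overlap in every gene shown.

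The shares rest on how the pseudoaligner split reads between transcripts of 1 gene, which differ in how much sequence sets them apart. Of the 31-base words of the leading decay transcript, 24.9% were in no coding transcript of the gene for Srsf7, 18.9% for Srsf3, 18.4% for Tra2b, 7.95% for Srsf6 and 3.17% for U2af1, but 0% for Srsf2. The Srsf2 share therefore had no word of its own behind it, and the U2af1 share had few. Words found only in coding transcripts were not counted. The leading coding transcript was longer than the decay transcript for Tra2b (3403 and 1687 bases) and Srsf6 (3527 and 1666 bases). For Srsf7 it was shorter (1040 and 1991 bases). Whether reads covered the exons with the early stop was not tested, so the shares do not measure inclusion of those exons. Srsf6, U2af1, Srsf1 and Srsf2's decay transcript were picked for description after their shares were seen. Among the 57 members with a mean of at least 20 counts per embryo, 4 (7.02%) had over 50% of their counts on decay transcripts, against 288 of 11270 protein-coding genes (2.56%). Over 10% lay on decay transcripts in 9 members (15.8%) and in 11.3% of the coding genes. The other 3 members of those 9 were Snrpa1, a U2 protein, with 26.1% on a decay transcript that skips an exon, Bcas2, a part of the Prp19 complex, with 30.5%, and Snrnp70, the U1 70K protein, with 11.1%.

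None of the 14 decay transcripts of members that could be tested was called different between the arms. Over all transcripts of members, 140 were tested, and 0 were lower (0.0871% of all transcripts tested) and 0 higher (0.222%) in knockdown by the edgeR quasi-likelihood test at an adjusted p under 0.05, with 7 at an unadjusted p under 0.05. The Srsf3 decay transcript had 139.2 ± 55.99 CPM in control and 122.4 ± 32.3 CPM in knockdown embryos (mean ± SD, n = 56 and 55), a log2 fold of -0.12 (SE 0.09). The Tra2b decay transcript had 250.4 ± 100.6 and 234.4 ± 109.8 CPM, a log2 fold of -0.10 (SE 0.13). For the leading decay transcripts of U2af1, Srsf2, Srsf6 and Srsf7 the log2 folds were -0.15, -0.16, -0.02 and -0.22. For those of Snrpa1, Snrnp70 and Bcas2 they were larger, at -0.40 (SE 0.18), 0.57 (SE 0.32) and 0.39 (SE 0.29). The Snrpa1 transcript was among the 7 at an unadjusted p under 0.05. The authors' deposited table of transcripts lists 340 transcripts of members, gives an adjusted p for 177 of them, and calls 0 lower and 0 higher, with a smallest adjusted p of 0.0586.

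Levels of the members ranged widely when compared per kilobase of transcript (CPM per kb, medians of control embryos). The Sm ring proteins Snrpg and Snrpe, which sit on the snRNA of every major particle but U6, led with 252.5 and 246.8 CPM per kb. Tra2b followed with 190.8, Srsf7 with 161.0, Srsf2 with 159.8 and Snrpc, a U1 protein that steadies the pairing of U1 with the 5' splice site, with 158.9 CPM per kb. In the other groups the leading members were Prpf38a (93.4), which the activating spliceosome needs, Lsm7 (82.7), Sf3b6 (79.9), which touches the branch site, Puf60 (60.5), Dhx8 (59.8), Snrnp25 (56.2), Snrnp27 (31.6) and Snrnp40 (19.2 CPM per kb). Prpf19, Sart1, Ddx23, Sf3b4 and U2af2 lay at 2.34 to 3.22 CPM per kb, and Sf3a2 at 0.443.

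**Figure D2:**
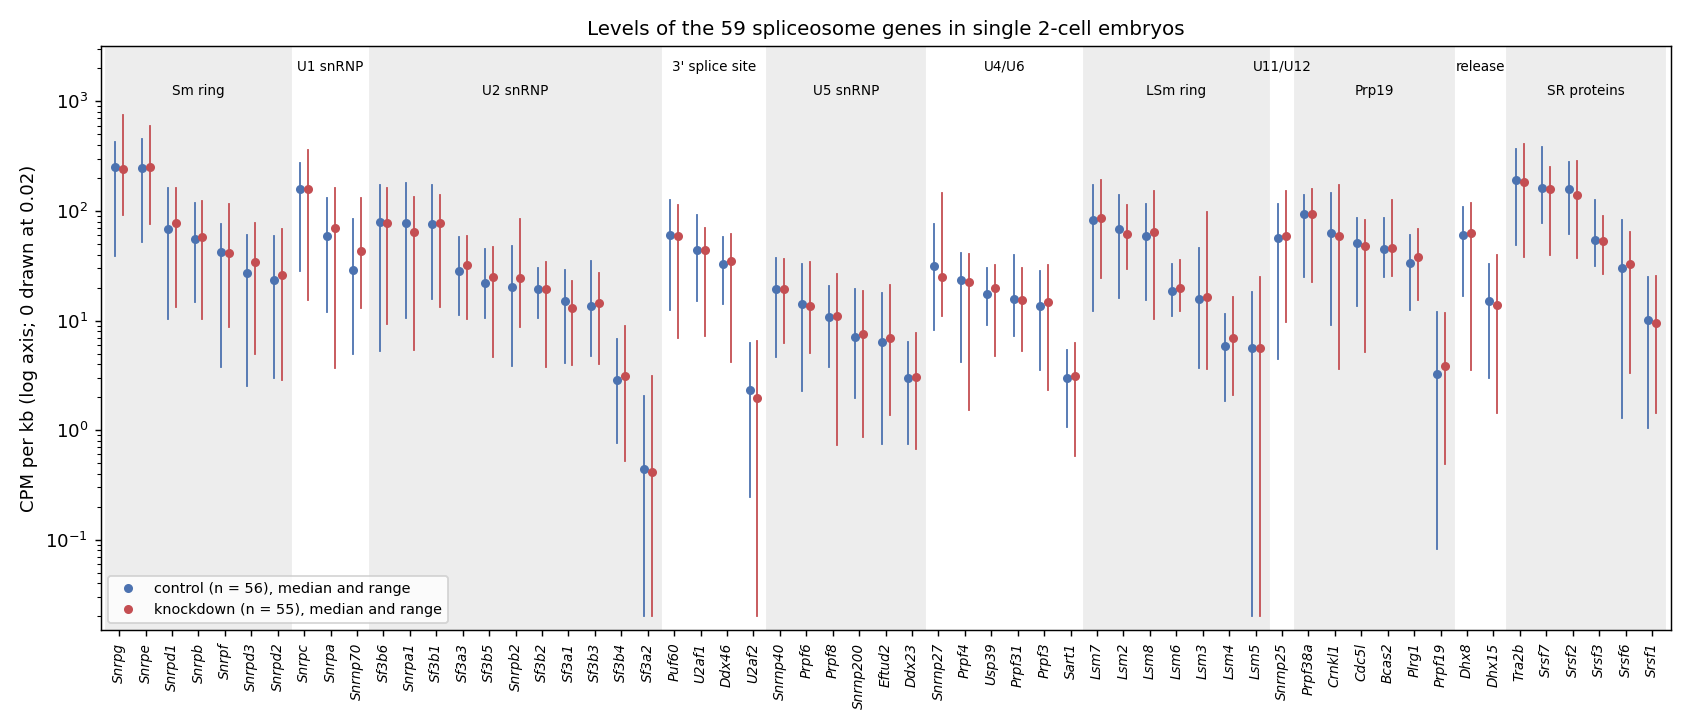
Level of each of the 59 members in CPM per kb (vertical log axis), grouped by complex, with points at the median and lines from the lowest to the highest embryo, control in blue (n = 56) and knockdown in red (n = 55). The Sm ring genes Snrpg and Snrpe lead at medians of 252.5 and 246.8 in control embryos, and Sf3a2 lies lowest at 0.443.

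Together the 59 genes made up a median of 0.5115% of the CPM scale in control and 0.5515% in knockdown embryos. That scale includes TMM factors over genes that passed the filter on low counts. These percentages are thus scaled levels and not plain shares of an embryo's counts. The members' sum was 1920, 5115 and 6589 CPM (lowest, median and highest) in control and 2526, 5515 and 7373 CPM in knockdown embryos. The means, 5001 ± 1054 and 5023 ± 1255 CPM (SD), lay closer than the medians. The SR proteins made the largest class sum, with medians of 1068 CPM in control and 1014 CPM in knockdown embryos, followed by the U2 proteins with 952.8 and 974.7 CPM. Embryo-to-embryo spread, as the coefficient of variation of CPM within a group of 1 experiment and arm (median over the 6 groups), was 0.23 for Sf3b2, 0.26 for Lsm6 and 0.28 for Srsf3. At the other end, Lsm5 had 0.74 and Sf3a2 0.90, both with embryos at 0 counts. Sf3a2, a part of the SF3A complex of U2, did not pass the filter on low counts, with a control median of 0.876 CPM and a count in 97 embryos, so tests cover 58 of 59 members.

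No member was called lower or higher in Nr5a2 knockdown embryos, and for most of them the data bound the difference to under 1.5-fold. Of the 58 members, 0 were lower (0.469% of 13444 genes tested) and 0 higher (0.632% of genes) by the edgeR quasi-likelihood test at an adjusted p under 0.05. In all, 63 genes were lower and 85 higher, and with library totals as the scaling 69 and 58. Among the members, 3 had an unadjusted p under 0.05, against 9.51% of all genes. By limma-voom 0 members were called, with 4 at an unadjusted p under 0.05, and by DESeq2 1 was called higher, with 4 at that threshold. Without the 2 embryos that stood apart 0 were called by edgeR, with 2 at that threshold. The members' median log2 fold was then 0.04, beside 0.0028 over all genes. Of the named members, 12 had a fold that moved by over 1.5 times or turned sign. It was then 0.14 for Snrpg, 0.16 for Snrpc, 0.03 for Sf3b6, -0.04 for Puf60, 0.04 for Snrnp40, -0.23 for Snrnp27, 0.06 for Lsm3, -0.03 for Prpf38a, -0.01 for Bcas2, -0.01 for Dhx8, -0.0035 for Tra2b and -0.03 for Srsf3. In the fit with all embryos the median log2 fold of the members was 0.01, beside 0.02 over all genes tested. Of the members 27 were negative and 31 positive, beside 6069 and 7375 of all genes tested. The 95% interval of the fold lay inside 1.5-fold in either direction for 55 members (70.2% of all genes tested with an interval) and inside 2-fold for all 58. The interval reaching lowest ended at -0.58 (Snrpa1), and the one reaching highest at 0.70 (Snrnp70). The median standard error was 0.13 for members and 0.16 for all genes.

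**Figure D3:**
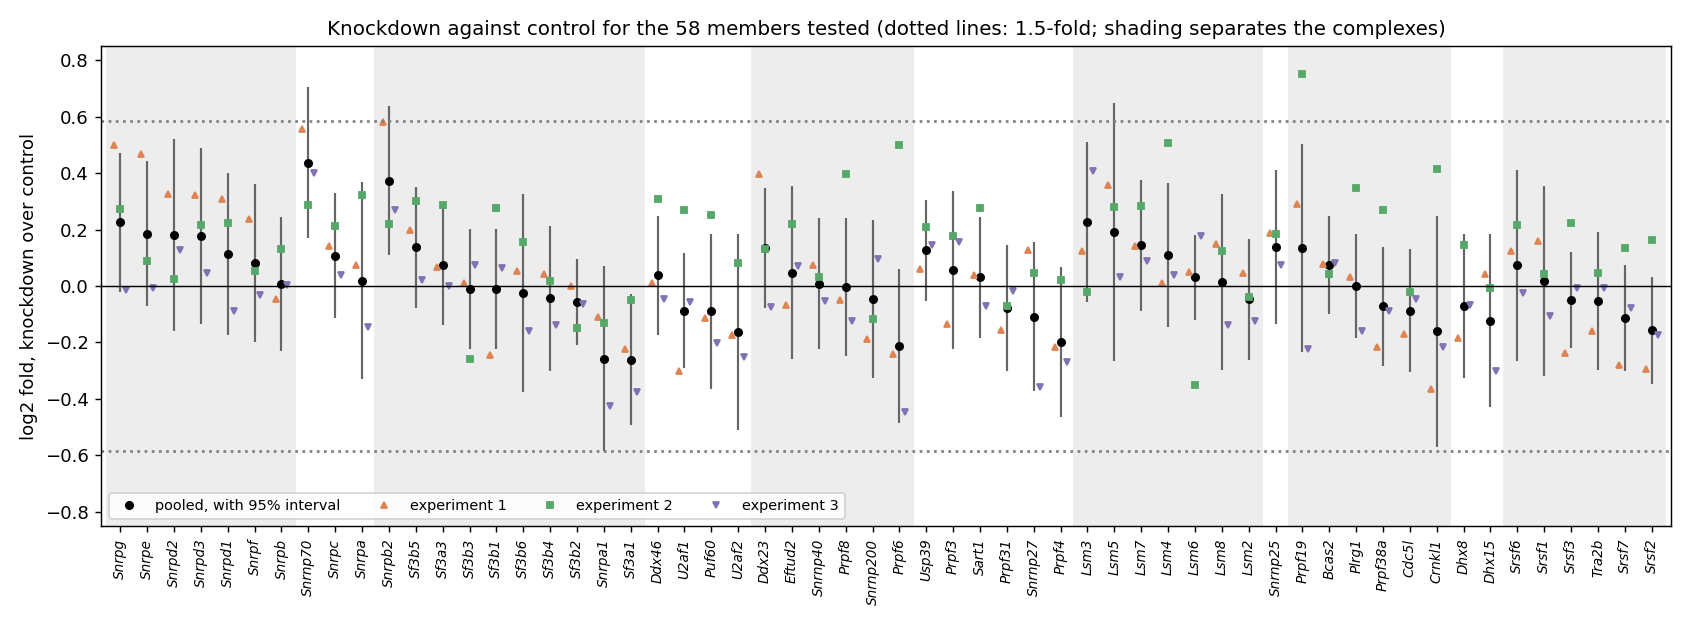
Log2 fold of knockdown over control (vertical axis) for the 58 members tested, ordered by complex, with black points and 95% intervals from the fit over all embryos and coloured markers for each experiment. Of the intervals, 55 stay inside the dotted lines at 1.5-fold, and Snrnp70 is the most positive at 0.44.

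All 7 genes of the Sm ring, the shared core that binds the snRNAs, had positive log2 folds, from 0.01 to 0.23 with a median of 0.18, and none passed the test. Snrpg, at 28.6, 186.7 and 311.9 CPM in control and 67.4, 178.1 and 551.0 CPM in knockdown embryos, had the largest of them. The medians of Snrpg lay in the opposite order to its fold, and the ranges overlapped. Its log2 fold was 0.23 (SE 0.12; edgeR adjusted p = 0.60), and 0.50, 0.27 and -0.02 in experiments 1, 2 and 3. The class median was 0.32 in experiment 1, 0.13 in experiment 2 and -0.01 in experiment 3 and thus largest in experiment 1. The count was 6 of 7 with library totals as the scaling, without experiment 1 (median 0.04), without experiment 2 and with embryo numbers as a block. Short transcripts leaned the same way over the whole table: of 2926 genes under 1.5 kb, 1823 were positive with a median of 0.06, and of 21 members under 1.5 kb, 15 were positive with a median of 0.08. The part of transcript length in the lean was not tested.

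Among the U1 proteins, Snrnp70 came nearest to the threshold of all members. Snrnp70 binds the first stem-loop of U1 snRNA. It had 7.80, 46.0 and 133.9 CPM in control and 20.7, 67.9 and 207.2 CPM in knockdown embryos, so the arms overlapped over most of their range. Its log2 fold was 0.44 (SE 0.13, 95% interval 0.17 to 0.70; edgeR adjusted p = 0.0958), with 0.56, 0.29 and 0.40 in experiments 1, 2 and 3. DESeq2 called it higher at an adjusted p of 0.0399 (log2 fold 0.45). Snrpc had 38.6, 216.2 and 370.6 CPM in control and 21.0, 217.4 and 485.9 CPM in knockdown embryos, with a log2 fold of 0.11 (SE 0.11). The medians of Snrpc nearly coincided.

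Of the Snrnp70 counts, 45.9% lay on retained-intron transcripts, nearly all on 1 transcript of a single exon (GRCm38 chr7:45390988-45392884, minus strand). That transcript had 25.4 ± 21.9 CPM in control and 38.5 ± 28.6 CPM in knockdown embryos (mean ± SD, n = 56 and 55). It had the smallest adjusted p of the members' transcripts, 0.155 by edgeR, with a log2 fold of 0.65 (SE 0.19). Its share of the gene differed between experiments as much as between arms. In experiment 1 the median retained share was 26.0% in control and 42.0% in knockdown embryos, in experiment 2 it was 73.4% (6 controls with 20 counts or more) and 41.4%, and in experiment 3 it was 57.97% and 57.31%. Knockdown embryos were thus higher in experiment 1, lower in experiment 2 and level in experiment 3, and the difference between experiments was not tested. Counted on protein-coding transcripts only, Snrnp70 was not called, and the smallest adjusted p of a member was 0.430.

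**Figure D4:**
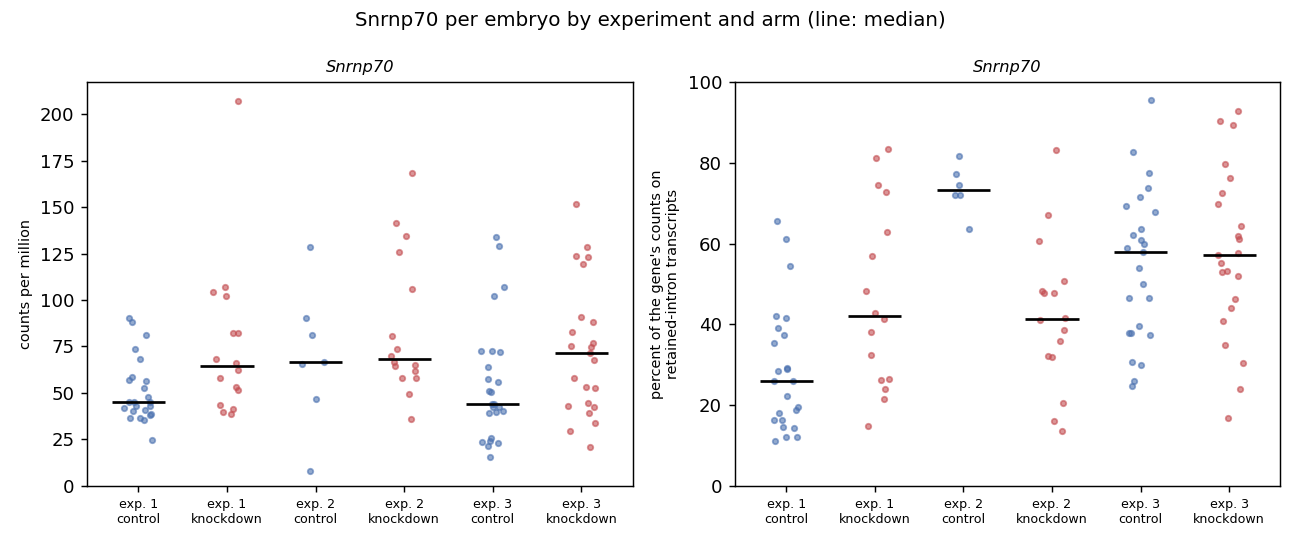
Snrnp70 per embryo in the 6 groups of experiment and arm, as CPM (left axis) and as percent of the gene's counts on retained-intron transcripts (right panel), with a line at the median. Median CPM is higher in the knockdown group of each experiment, while the retained share is higher, lower and level in experiments 1, 2 and 3.

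The U2 proteins had 7 negative and 3 positive log2 folds, with a median of -0.02. Over the alternatives 5 to 8 were negative, with 8 of 11 when no filter was set. The split was 5 and 5 without experiment 3 or without the 2 embryos that stood apart. Snrpb2, a U2 protein that binds a stem-loop of U2 snRNA, had 6.09, 32.4 and 76.4 CPM in control and 14.0, 39.4 and 133.6 CPM in knockdown embryos. Its log2 fold was 0.37 (SE 0.13; edgeR adjusted p = 0.198), positive in each experiment (0.58, 0.22 and 0.27). The arms overlapped. Sf3a1, a part of SF3A named for its unadjusted p, went the other way with a log2 fold of -0.26 (SE 0.12; edgeR adjusted p = 0.408). Sf3b6 had 5.75, 87.7 and 188.6 CPM in control and 10.2, 85.1 and 176.7 CPM in knockdown embryos, a log2 fold of -0.02 (SE 0.18) that turned positive without experiment 3 (0.10) and without the 2 embryos that stood apart (0.03).

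The factors that read the branch site and the 3' splice site had 3 negative folds of 4, and 2 to 4 over the alternatives. Puf60, a U2af2-related protein, had 22.6, 110.6 and 231.2 CPM in control and 12.6, 108.5 and 208.8 CPM in knockdown embryos, with a log2 fold of -0.09 (SE 0.14). U2af2, which binds the polypyrimidine tract, was low throughout, at 0.515, 4.88 and 13.1 CPM in control and 0, 4.05 and 13.7 CPM in knockdown embryos. Its log2 fold was -0.16 (SE 0.18; edgeR adjusted p = 0.897). Neither gene separated the arms.

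In the U5 class 3 members were negative and 3 positive, and 1 to 4 were negative over the alternatives. Snrnp40, a WD-repeat protein of U5, had 7.25, 29.8 and 57.9 CPM in control and 9.74, 29.9 and 56.8 CPM in knockdown embryos, and its log2 fold was 0.01 (SE 0.12). Prpf6, which bridges U5 and U4/U6, had 6.90, 43.2 and 99.1 CPM in control and 15.4, 41.1 and 103.4 CPM in knockdown embryos. Its log2 fold was -0.21 (SE 0.14), made of -0.24, 0.50 and -0.45 in experiments 1, 2 and 3. The U4/U6 class was split 3 and 3 as well. There Prpf4, a U4/U6 protein, had 21.5, 120.7 and 211.0 CPM in control and 7.88, 115.2 and 205.9 CPM in knockdown embryos, with a log2 fold of -0.20 (SE 0.13; edgeR adjusted p = 0.740).

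The LSm ring, which holds the end of U6 snRNA, had 6 of 7 positive folds and a median of 0.11, with 4 of 7 when library totals were the scaling and 5 of 7, with a median of 0.07, without the 2 embryos that stood apart. All genes of this ring but Lsm6 were also under 1.5 kb, where 1823 of 2926 genes of the whole table were positive. The part of transcript length was not tested here either. Lsm7 had 6.26, 42.7 and 89.7 CPM in control and 12.7, 44.0 and 98.9 CPM in knockdown embryos, a log2 fold of 0.14 (SE 0.12). Lsm3 had 2.78, 11.8 and 34.7 CPM in control and 2.72, 12.3 and 73.7 CPM in knockdown embryos, a log2 fold of 0.23 (SE 0.14; edgeR adjusted p = 0.696). The medians of both genes were close across the arms. Snrnp25 was the only member from the U11/U12 particle, which serves the rare minor introns. It had 3.61, 45.7 and 94.9 CPM in control and 7.88, 47.7 and 124.2 CPM in knockdown embryos, a log2 fold of 0.14 (SE 0.14).

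The Prp19 class, needed to activate the assembled spliceosome, had 4 negative folds of 6, and 2 to 4 over the alternatives. Prpf38a had 38.6, 144.1 and 216.8 CPM in control and 34.7, 143.4 and 247.1 CPM in knockdown embryos, with a log2 fold of -0.07 (SE 0.11). Bcas2 had 35.4, 62.9 and 122.1 CPM in control and 36.0, 64.9 and 175.9 CPM in knockdown embryos, with 0.07 (SE 0.09). The arms of both genes overlapped over nearly their whole range. Of the release helicases, Dhx8, which frees the spliced mRNA, had 71.5, 253.9 and 461.1 CPM in control and 14.9, 268.4 and 502.4 CPM in knockdown embryos, a log2 fold of -0.07 (SE 0.13). Dhx15, which takes the leftover intron complex apart, had 8.66, 43.9 and 95.8 CPM in control and 4.17, 40.7 and 115.4 CPM in knockdown embryos, a log2 fold of -0.12 (SE 0.15).

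The SR proteins had 4 negative folds of 6 with a median of -0.05, against 6 of 6 by limma-voom and 3 of 6 on protein-coding transcripts alone, and the median was -0.02 without the 2 embryos that stood apart. Tra2b had 90.3, 351.5 and 681.3 CPM in control and 69.5, 335.3 and 753.4 CPM in knockdown embryos, a log2 fold of -0.05 (SE 0.12). Srsf2 had 76.3, 196.6 and 342.5 CPM in control and 46.1, 171.8 and 353.8 CPM in knockdown embryos. Its log2 fold was -0.16 (SE 0.10; edgeR adjusted p = 0.678), the smallest p of the class. For Srsf3 and Srsf7 the log2 folds were -0.05 (SE 0.09) and -0.11 (SE 0.09), and the Srsf3 fold was positive on its coding transcript alone (0.45).

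Taken 1 experiment at a time, no member was called by the edgeR quasi-likelihood test. Over all genes 0.922%, 0% and 0.149% were called in experiments 1, 2 and 3. An unadjusted p under 0.05 was seen for 5, 1 and 3 of the 58 members, and for 1255, 517 and 961 of 13444 genes. In experiment 1 these members were Snrpb2 (log2 fold 0.58), Snrnp70 (0.56), Snrpg (0.50), Snrpe (0.47) and Ddx23 (0.39). In experiment 2 it was Lsm6 (-0.35), and in experiment 3 they were Prpf6 (-0.45), Sf3a1 (-0.38) and Snrnp70 (0.40). Snrnp70 was the only gene in more than 1 of these lists. The target Nr5a2 was itself called in experiments 1 and 3 (edgeR adjusted p = 9.3e-06 and 0.00027) but not in experiment 2. There its log2 fold was -1.13 (edgeR adjusted p = 0.757). The absence of calls in experiment 2 thus does not show that members were unchanged there. The members' median log2 folds were 0.04, 0.17 and -0.05 in experiments 1, 2 and 3, beside 0.01, -0.01 and 0.03 over all genes. The same sign in all 3 experiments was seen in 17 of 58 members and in 3471 of 13444 genes. A test of whether the effect of the arm differed between experiments called 0 members (0.0149% of genes) by edgeR. At an unadjusted p under 0.05 were Lsm6 and Prpf6 (edgeR adjusted p = 0.877 for each), and 760 of 13444 genes. By limma-voom 0 members were called, with 4 at that threshold.

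Between experiments the control embryos differed in some members, as they did in many other genes. Of 58, 3 were called by the edgeR quasi-likelihood test (10.9% of all genes were), namely Ddx23, Srsf3 and Snrnp27, and 14 had an unadjusted p under 0.05 (24.4% of genes). Ddx23, a helicase of U5, had 2.77, 7.92 and 11.6 CPM in the controls of experiment 1, 2.05, 4.64 and 7.98 CPM in experiment 2 and 2.30, 10.1 and 17.3 CPM in experiment 3. Experiment 2 lay lowest and experiment 3 highest, with overlap (log2 fold of experiment 3 over 2, 0.95, SE 0.25; adjusted p over the 3 groups = 0.0133). Srsf3 had 93.8, 148.4 and 328.2 CPM in experiment 1, 82.9, 111.6 and 146.8 CPM in experiment 2 and 82.8, 143.4 and 289.5 CPM in experiment 3 (experiment 2 over 1, -0.67, SE 0.20; edgeR adjusted p = 0.0327). Snrnp27, a protein of the tri-snRNP, had 7.09, 23.8 and 66.1 CPM in experiment 1, 14.2, 18.4 and 28.3 CPM in experiment 2 and 14.1, 35.2 and 64.6 CPM in experiment 3 (experiment 3 over 2, 0.86, SE 0.31, and 3 over 1, 0.48, SE 0.19; edgeR adjusted p = 0.0482). In all 3 genes the controls of experiment 2 had the lowest median. Srsf7, next in order, had control medians of 304.7, 165.8 and 241.6 CPM (edgeR adjusted p = 0.0560). The labels do not say what an experiment stands for beyond its number. In knockdown embryos of experiments 1, 2 and 3 the medians were 10.0, 5.20 and 8.54 CPM for Ddx23, 144.1, 123.9 and 149.4 CPM for Srsf3, and 22.6, 20.5 and 22.4 CPM for Snrnp27, so that Snrnp27 was near level there. Without the 2 embryos that stood apart 5 members were called, with Snrpg and Srsf7 added, beside 1668 of 13462 genes. By limma-voom 2 members were called, Snrnp27 and Snrpg, beside 1410 of 13444 genes.

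**Figure D5:**
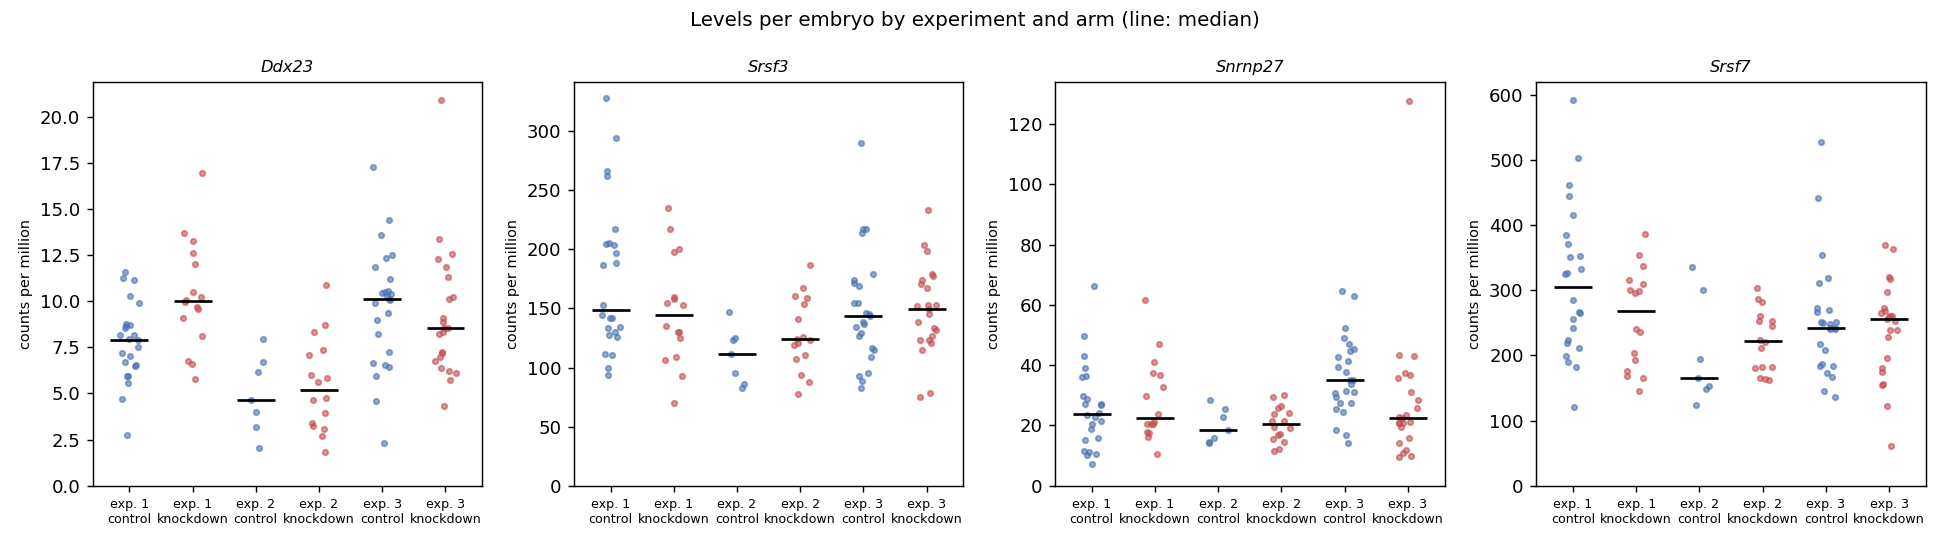
CPM per embryo (vertical axes) of Ddx23, Srsf3, Snrnp27 and Srsf7 in the 6 groups of experiment and arm, control in blue and knockdown in red, with a line at the median. The 7 control embryos of experiment 2 have the lowest control median in each gene, 4.64, 111.6, 18.4 and 165.8 CPM, and overlap the other experiments.

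Retained-intron transcripts of all genes, a measure that the choice of members did not use, took 4.39% ± 0.50 of an embryo's counts in control and 4.57% ± 0.55 in knockdown embryos (mean ± SD, n = 56 and 55). The difference within experiments was 0.204 percentage points (SE 0.10; two-sided permutation test within experiments, p = 0.0489, adjusted over 2 measures p = 0.0979), with 0.512, 0.032 and 0.027 in experiments 1, 2 and 3. The difference was largest in experiment 1. Without experiment 3 it was 0.351 (adjusted p = 0.0214), without the 2 embryos that stood apart 0.251 (adjusted p = 0.0273), and without experiment 1 0.0286 (adjusted p = 0.812). Decay transcripts took 3.57% ± 0.30 of the counts in control and 3.46% ± 0.39 in knockdown embryos, a difference of -0.106 percentage points (SE 0.065; permutation test, adjusted p = 0.109), and of -0.0645 without the 2 embryos that stood apart.

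Other genes of the pathway were given from 7 lists of 131 genes, of which 128 passed the filter on low counts. By the edgeR quasi-likelihood test 1 of the 128 was called lower and 0 higher, beside the 0.469% and 0.632% of all genes, with 55 negative and 73 positive folds and a median of 0.02. The gene called was Hnrnpll, an hnRNP known from alternative splicing in lymphocytes, with 1.99, 11.3 and 42.3 CPM in control and 0.619, 7.28 and 17.4 CPM in knockdown embryos. Hnrnpll fell by 0.77 on the log2 scale (SE 0.19; edgeR adjusted p = 0.0142), and was not called without experiment 1 (adjusted p = 0.538), without experiment 3 (0.288) or with embryo numbers as a block (0.180). In the list of other SR proteins and their kinases, 0 of 16 were called, and the smallest p belonged to Clk4, a kinase that phosphorylates SR proteins, with a log2 fold of -0.41 (SE 0.13; edgeR adjusted p = 0.101). Clk4 had 28.8, 67.2 and 222.1 CPM in control and 11.8, 51.4 and 101.4 CPM in knockdown embryos. Of 44 other spliceosome factors 0 were called. Zmat2, a zinc-finger protein of the precatalytic spliceosome, came nearest, at 24.2, 62.7 and 105.6 CPM in control and 28.0, 73.8 and 118.4 CPM in knockdown embryos (log2 fold 0.26, edgeR adjusted p = 0.0864), and DESeq2 called it higher (adjusted p = 0.0285). The remaining lists had 0 calls by edgeR, their smallest p belonging to Gemin8, which helps load Sm rings (0.38), Acin1 of the exon junction complex (0.27), Scnm1 of the minor spliceosome (0.24) and the LSm-domain protein Lsm14a (0.19 on the log2 scale).

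Since Nr5a2 binds DNA, the promoters of the members were searched for 2 spellings of its known site on both strands, in RefSeq windows of GRCm38.p6 that run from 250 bases before to 50 after a gene's start, which 48 of the 59 members had. TCAAGGTCA or TCAAGGCCA was in 0 of the 48, and in 1.15% of 27025 genes with a window. The shorter CAAGGTCA or CAAGGCCA, tried after the longer spelling gave none, was in 1 of 48 (2.08%) and in 4.49% of all genes. The member was Lsm7, whose log2 fold of 0.14 is given above. The stretch is shown because it holds the only match among the members, in capitals, 237 bases before the start.
Lsm7, GRCm38.p6 chr10:80855414-80855459, minus strand: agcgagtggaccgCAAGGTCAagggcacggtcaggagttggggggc
A match of letters is no measure of binding, and no match says only that these letters were not in the windows.

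Some members share sequence with other genes, so their counts may be split with them. Over 50% of the 31-base words of the leading transcript occurred in another gene's transcripts for 6 members, and under 1% for 25. Srsf2 shared 71.2% with Mettl23, which overlaps it, and Snrpf 61.7% with Ccdc38. Of 13 pseudogene copies of 8 members, the 3 highest were AC102268.2, a copy of U2af1 at a mean of 138.4 CPM beside 44.5 CPM for U2af1 itself, and the Cdc5l copies Gm9029 and Gm9030 at 51.9 and 68.4 CPM. Gm10232, another copy of U2af1, had 3.59 CPM and Gm10254, a copy of Tra2b, 1.316 CPM. Adding the copies to their members called 0 members, with 4 at an unadjusted p under 0.05. The leading transcript of U2af1, its decay transcript, shared 67.4% of its words with other genes. Both the U2af1 level and its decay share in these libraries are therefore uncertain.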

How the data were processed

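Expected counts (each an estimated count per transcript, not normalized) were deposited by the authors, who made single-embryo SmartSeq2 libraries with oligo-dT priming, per the labels' protocols, so overlapping genes on opposite strands can share reads and counts are not of separate molecules. The submitters' processing notes name, without roles, kallisto 0.46.1 with Trim Galore 0.6.2, bcl2fastq, DESeq2 1.32.0, R 3.5.1, and 2 builds, hg19 and mm10. No source used here gives the annotation release. The authors' deposited transcript table, with a log2 fold change and an adjusted p-value for each entry, was read only for the values credited to it.

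Transcripts were summed to genes and rounded. Those with no gene (1726, a median of 0.567% of the counts) were left out. Transcript types and exons came from GENCODE on GRCm38. Genes that passed filterByExpr by arm (13444) were scaled by TMM and tested with edgeR 4.0.16 over all embryos, with experiment as a factor (107 residual degrees of freedom), after the script was tested on simulated data. Folds within experiments, between experiments and their interaction came from a model with 6 groups. P-values were adjusted by Benjamini-Hochberg over all features tested, at a threshold of 0.05. Shares of counts were compared with 100000 permutations of the arm within experiments.

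The members and lists were chosen with earlier results of these data known. Members named were, per class, the highest per kb and the smallest p, and the 4 with the smallest p between experiments, with the called genes or else the smallest p of each pathway list. Sf3a1, Snrpe, Snrpa1, U2af1, Srsf1, Srsf6, Lsm5, Lsm6, Sf3a2, Sf3b1, Sf3b2, Prpf19, Sart1, Sf3b4, Snrpf and Cdc5l fall outside that rule and were chosen after their values were seen. Alternatives were limma-voom (limma 3.58.1), DESeq2 1.42.0, library totals as the scaling, no filter, protein-coding transcripts only, each experiment left out, a replicate block and, chosen after seeing the data, pseudogene copies added and the 2 embryos that stood apart left out.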

Additional observations from a re-analysis of the deposited data

Results flagged for a closer look

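In experiment 2, control embryo 2 was the lowest of the 7 controls by a wide gap in 2 of 25 values examined for a single far-off embryo, where chance flags about 1 in 20 groups. The sum of all members was 1920 CPM in this embryo and 4718 CPM in the next lowest, a gap of 0.639 of the group's range, above the critical value of 0.568. Prpf4 was at 45.55 CPM there and at 121.8 CPM in the next lowest embryo, a gap of 0.619 of the range. This library held 2155033 counts after rounding per gene, and its median correlation to its group was 0.734.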

How the results depend on the processing

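For 367 values of single genes and medians under the alternatives, 341 counted as the same and 16 turned sign, all of single genes. Of the rest 4 passed the threshold anew and 6 lost it. A single gene counted as the same where it kept its direction and side of the threshold. The members' median counted as the same where it moved by less than the standard deviation of its 3 within-experiment values, whatever its sign. It was -0.0088 with library totals, -0.02 by limma-voom and -0.02 without experiment 2, beside 0.01 in the main fit. In those fits 32, 32 and 31 members were negative. The sign turned for Snrnp40 with library totals (-0.0123), limma-voom (-0.0017), protein-coding transcripts only (-0.0032) and without experiment 1 (-0.0238), and for Srsf3 on protein-coding transcripts only (0.45). Without experiment 1 it turned for Srsf3 (0.0636), Prpf38a (0.0185), Tra2b (0.0137) and Ddx23 (-0.0115). Without experiment 3 it turned for Sf3b6 (0.10), Puf60 (0.0192), Prpf6 (0.0075), Snrnp27 (0.11) and Dhx15 (0.0352), and without the 2 embryos that stood apart for Sf3b6 (0.0295) and Bcas2 (-0.0147). None of these folds passed the test in any of these fits, and the cause was not tested.

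Members called in knockdown numbered 0 under every alternative but DESeq2, which called 1, Snrnp70. With no filter on low counts, 9 member transcripts were called of 337 tested, 8 of them with a mean of about 1 count or less. The last was the retained-intron transcript of Snrnp70 (log2 fold 0.62, edgeR adjusted p = 0.0445). The share of all transcripts called in that fit is not given here. Over all genes, calls without the filter rose as well, from 63 lower and 85 higher to 391 and 574. Clk4 was called with no filter (adjusted p = 0.0427). Without the 2 embryos that stood apart 5 members differed between experiments in controls, as did 1668 of 13462 genes. The retained-intron difference passed without experiment 3 (0.351) and without the 2 embryos (0.251), and the cause was not tested. Ddx23 and Srsf3 were not called between experiments by limma-voom (adjusted p = 0.0584 and 0.0654), nor Snrnp27 with no filter (0.0508).

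With the embryo number within an experiment as a replicate block (46 pairs, 92 embryos), 0 members were called, with 2 at an unadjusted p under 0.05 and a smallest adjusted p of 0.307 by edgeR, and 8 genes were lower and 11 higher over the table. The correlation of paired embryos' deviations ran from -0.364 to 0.376 (median 0.052), and 16 pairs were over 0.1. Of the controls, 5 correlated best with their own number. No chance level was computed for these values, so they do not settle whether the numbers pair the embryos. Genes called lower and higher over the table numbered 391 and 574 with no filter, 98 and 101 by limma-voom, 35 and 36 on protein-coding transcripts, 9 and 14 without experiment 1, 59 and 136 without experiment 2, 11 and 31 without experiment 3, and 86 and 141 by DESeq2. At this depth Sf3a2 did not pass the filter, and Sf3a2, Lsm5 and U2af2 had embryos with no count.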

Other observations

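Some other splicing genes also had much of their count on annotated decay transcripts. Among all protein-coding genes with a mean of 20 counts per embryo, 11.3% had over 10% of their count there and 2.56% over 50%. Among 24 hnRNP and related genes with a mean of 20 counts per embryo, 6 (Hnrnpa1, Hnrnpa2b1, Hnrnpd, Hnrnph3, Hnrnpll and Hnrnpu) had over 50% there, and 9 had over 10%. Among 16 other SR proteins and their kinases, 7 had over 10%, with 65.1% for Clk1, a kinase of SR proteins, 58.6% for Tnpo3, their nuclear importer, 44.9% for Srpk2, another kinase, and 43.9% for Tra2a, the paralog of Tra2b. Of 44 other spliceosome factors 9 had over 10%. Over 10% was seen in 2 of 8 Sm and LSm paralogs, 1 of 9 genes of the exon junction complex, 0 of 10 of the minor spliceosome and 0 of 16 of snRNP assembly, with none over 50%. The shares describe these libraries and were not tested against other genes. Retained-intron transcripts took 37.0% of the counts of Sf3b1, the branch-site subunit of U2, and 29.0% of those of Sart1, a tri-snRNP protein.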
